A study of Mus musculus with 6 samples.

Results

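The enzymes of lipid mediator and amine synthesis described here were 9 genes measured in cultured mouse cells labelled as female germline stem cells (FGSCs) with and without knockdown of CTCF, a zinc finger protein that binds DNA and sets the borders of chromatin loops. The 9 members were Pla2g4a, Alox5, Alox5ap, Ltc4s, Ptgs1, Ptgs2, Hpgds, Hdc and Tph1, taken by symbol out of 24732 symbols in the FPKM table (fragments per kilobase of transcript scaled to the mapped total) and 24813 symbols in the count table. They were chosen with the FPKM and count differences between the same control and shCTCF libraries known, so that their differences between the groups are given as descriptions and without a test. RNA-seq of 3 control and 3 shCTCF samples was used. The labels give strain C57BL/6, more than 20 passages and growth on mitotically inactivated STO fibroblast feeder cells for both groups. By the study's methods, FGSCs were isolated from neonatal ovaries of Ddx4-Cre; mT/mG mice, in which Cre is driven by the germ cell gene Ddx4, and knockdown used a lentivirus with 1 short hairpin RNA (shRNA) and puromycin selection. What the control cells received is not given in the sources used here, nor is it stated that the replicates came from separate cultures, so that p-values measure the spread between these samples, which may be technical.

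Eicosanoids are signalling lipids made from arachidonic acid, which phospholipase A2 releases from membranes. The lipoxygenase Alox5, presented with its substrate by Alox5ap, makes leukotriene A4, which Ltc4s joins to glutathione, whereas the cyclooxygenases Ptgs1 and Ptgs2 make prostaglandin H2, which Hpgds turns into prostaglandin D2. Histamine is made from histidine by Hdc in a single step, and serotonin from tryptophan by Tph1, which needs the cofactor tetrahydrobiopterin (BH4), followed by the decarboxylase Ddc. Mast cells are the textbook case of a cell in which these pathways run together.

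Total counts ranged from 1686052 in control 2 to 7044272 in control 3, and 3 counts, the upper limit that a count of 0 allows, stood for 0.426 to 1.78 CPM, the counts scaled to an equal library total, which covers counting error only. Ctcf itself fell from 58.2, 56.0 and 53.5 FPKM in control 1 to 3 to 0.740, 0.550 and 0.629 FPKM in shCTCF 1 to 3 (log2 difference -5.12 ± 0.0863 (SE), limma adjusted p = 1.1e-08), while the count table held 0 counts for it in all 6 samples. Of 9976 genes tested in the FPKM table, 28.8% were called higher and 44.2% lower in the shCTCF group by limma at an adjusted p under 0.05, and of 7341 genes tested in the count data 34.8% were called higher and 34.3% lower by the quasi-likelihood test of edgeR. The median log2 difference over all tested genes was -0.17 in the FPKM table and -0.02 in the count table. With equal medians in all samples the first became -0.01, and with library size as the only scaling the second became -0.19, so that differences are to be read relative to these medians.

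The labelled cell type was checked against its markers. By RT-PCR, the study reported Ddx4 (Mvh), Dazl, Dppa3 (Stella), Pou5f1 (Oct4), Gfra1 and Ifitm3 (Fragilis) in its cultured FGSCs. It also reported MVH protein by immunofluorescence. Only RNA-seq values are examined here. The germ cell genes Ddx4, Dazl, Dppa3, Pou5f1 and Gfra1 were at 0 FPKM in the mean of the controls, and none of them had a mean above that of Ddx4 (0.125 FPKM) in shCTCF samples. Of 10 listed FGSC markers 3 reached a mean of 1 FPKM, and nearly all of the summed level of that list (561 to 632 FPKM in control and 798 to 826 in shCTCF samples) was Kit, the stem cell factor receptor, which is also a mast cell marker. Etv5 (means of 17.3 FPKM in control and 14.3 in shCTCF samples) and Ifitm3 (0.737 and 10.8) also reached it, and Zbtb16 (1.57 and 0.288) did not. All 10 pan-leukocyte markers reached 1 FPKM, with summed levels of 1186 to 1200 FPKM in control and 1207 to 1255 in shCTCF samples, and Ptprc (CD45) had a mean of 104 FPKM in control and 115 in shCTCF samples. The RNA values therefore go against the label for the germ cell genes named first and the leukocyte markers, whereas Etv5 of the FGSC list was present in both groups. Ifitm3 was at 1.00, 0 and 1.21 FPKM in control 1 to 3 and reached a mean of 1 FPKM only through the shCTCF group. Of 20 mast cell markers 11 reached 1 FPKM, led by Cd63, Kit, Gata2 and Srgn, and their sum was 1976 to 2093 FPKM in control and 3669 to 3878 in shCTCF samples, whereas Fcer1a, Tpsg1, Mrgprb1 and Mrgprb2 were listed at 0 in all 6. Of the 11 tested 6 were called higher and 1 lower, beside 28.8% and 44.2% of all genes. The lower one was the mast cell protease gene Cpa3 with a fall from a mean of 281 to 88.0 FPKM (limma adjusted p = 5.1e-05). Among the 6, Tpsab1 (means of 0.14 and 2.08 FPKM) reached the level needed for testing only through the shCTCF group. Sums for the other lists were 47.8 to 56.5 against 117 to 156 FPKM for basophil markers (5 of 8 reached 1 FPKM, led by Il4 and Il13; Prss34, Fcer1a and Cebpa at 0), 103 to 113 against 206 to 242 for macrophage markers (5 of 15, led by Cd68 and Adgre1; C1qa and C1qb at 0) and 13.4 to 14.4 against 29.9 to 31.9 for fibroblast markers (7 of 16; Col3a1 and Lum at 0 FPKM). The fibroblast markers did not move together, since 4 of the 7 tested were called higher, among them Col6a1 (means of 0.144 and 15.3 FPKM) and Mmp2 (0.136 and 7.03), and 3 lower, namely Pdgfrb (6.09 and 2.16), Dcn (2.71 and 0) and Fn1 (2.22 and 0.0266). Tagln was listed at 0 FPKM but had 7, 2 and 13 counts in control and 21, 17 and 26 counts in shCTCF samples and was called higher there (edgeR adjusted p = 0.0027). Col6a1, Mmp2, Tagln and Thy1 (means of 0.382 and 2.02 FPKM) reached the level needed for testing only through the shCTCF group. Dcn and Fn1 reached it only through the control group. These sums moved with the groups, but a few genes carried much of each rise. Il13 had means of 4.08 and 68.8 FPKM, and of 5 basophil markers tested 3 were called higher and 0 lower. Cd68 had means of 44.7 and 137 FPKM and Fcgr1 5.43 and 5.26. Of 5 macrophage markers tested 4 were called higher and 0 lower, Lyz2 and Mpeg1 only through the shCTCF group. Cd63 (330.5 and 1184 FPKM) and Srgn (174 and 770) led the mast cell rise, whereas the groups overlapped for Gata2 (501 and 560). The part of these sums in the values below was not tested. In bulk RNA, fewer cells of a type and less RNA per cell cannot be told apart.

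Per length, the members spanned a wide range of levels. Averaged over the 6 samples, Tph1 had the highest FPKM (415.5), followed by Alox5ap (141), Pla2g4a (63.1), Hdc (45.7), Ptgs1 (5.39), Hpgds (5.19), Ptgs2 (1.59), Ltc4s (0.963) and Alox5 (0.012). The Tph1 value is the sum of 3 transcripts, and in control samples none alone reached Alox5ap (means of at most 107 against 134 FPKM). The order differed between the groups, since Hdc lay below Pla2g4a in every control sample and above it in every shCTCF sample. Among neighbours in the order of a group's own means, Hpgds and Hdc overlapped in the control samples, and no pair overlapped in the shCTCF samples. Ltc4s and Alox5 stayed below a mean of 1 FPKM and entered no fit. Of the 7 members in the FPKM fit 5 were called higher and 0 lower, beside 28.8% and 44.2% of all genes, and of 6 in the count fit 5 were called higher and 0 lower, beside 34.8% and 34.3%. Nothing is read from these counts, since the members were chosen on the same contrast.

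**Figure D1:**
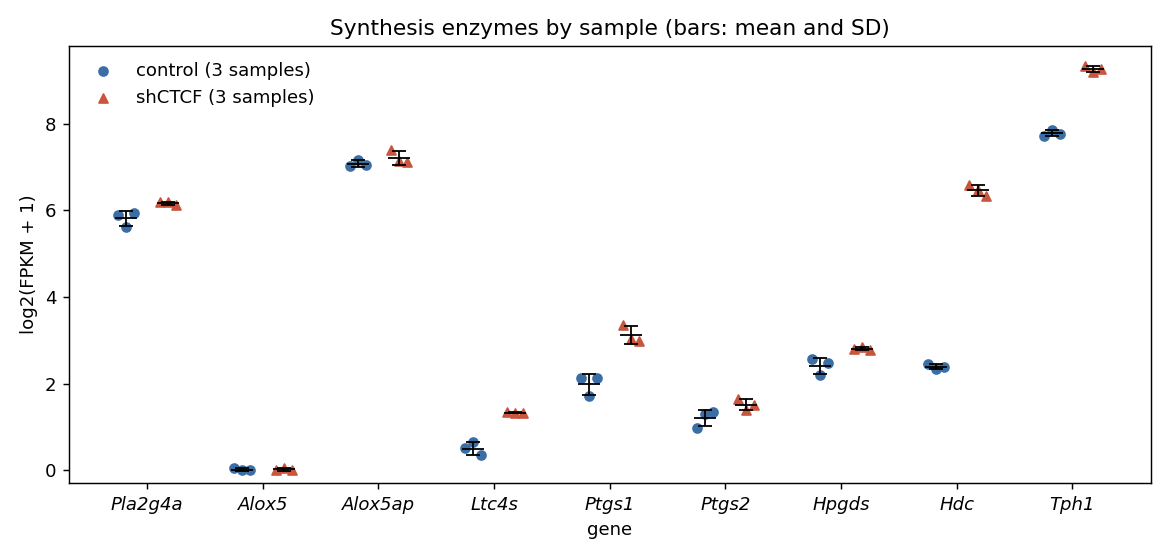
Level of each of the 9 synthesis enzymes as log2(FPKM + 1) in the 3 control (circles) and 3 shCTCF (triangles) samples, with bars for the mean and SD of each group. Hdc stands out with a mean of 4.25 FPKM in control and 87.2 in shCTCF samples, Tph1 has the highest FPKM summed over transcripts in both groups, and Alox5 lies at the baseline in all 6 samples.

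Histidine decarboxylase, Hdc, makes histamine and lies on the minus strand of chromosome 2 (mm9, 126419396 to 126444414). Its level was 4.49, 4.07 and 4.20 FPKM in control 1 to 3 and 94.9, 86.9 and 79.7 FPKM in shCTCF 1 to 3. The groups did not overlap, and the lowest shCTCF sample lay far above the highest control sample. The means were 4.25 ± 0.219 FPKM and 87.2 ± 7.59 FPKM (SD, n = 3 each), a ratio of 20.5. In the count table Hdc had 147, 33 and 146 counts in the control group and 2549, 2153 and 2511 counts in the shCTCF group, or 19.8 ± 1.43 and 429 ± 37.8 CPM. The log2 difference was 4.07 ± 0.0862 (SE) on the log2(FPKM + 1) scale and the log2 fold change was 4.41 ± 0.106 (SE) in counts, with ranges of 4.0 to 4.32 and 4.24 to 4.48 over all processing alternatives. No exon of another gene overlapped Hdc.

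The 250 bases before the Hdc start are shown because Hdc had the largest difference of the members. The sequence is from RefSeq (GRCm38.p6, chr2:126618679-126618928, minus strand), is found once on mm9 chromosome 2, at 126444415 to 126444664, and is written 5′ to 3′ with the motif match in capitals.
Hdc: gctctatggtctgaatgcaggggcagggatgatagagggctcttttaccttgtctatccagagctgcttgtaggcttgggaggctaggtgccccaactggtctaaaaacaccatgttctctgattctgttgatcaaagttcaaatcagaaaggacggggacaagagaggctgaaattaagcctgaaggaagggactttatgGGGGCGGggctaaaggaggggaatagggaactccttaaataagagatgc
A set of 7 letter strings was searched on both strands of all 32851 RefSeq promoters of this length: TATAAA (in 12.37% of them), AGATAA (9.99%), TGATAA (7.94%), TGACTCA (4.46%), CACGTG (6.02%), the GC box GGGGCGG (20.97%) and the CTCF core AGGGGGCG (5.39%). The Hdc window held the GC box from -49 to -43 relative to the start and none of the others. A match is a description of letters only.

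Tryptophan hydroxylase 1, Tph1, starts serotonin synthesis outside the brain and lies on the minus strand of chromosome 7 (mm9, 53900011 to 53927907). It was at 209, 232 and 217 FPKM in control 1 to 3 and at 640, 586 and 609 FPKM in shCTCF 1 to 3. Every shCTCF sample was above every control sample, and Tph1 was abundant before the knockdown. The means were 219 ± 11.3 and 612 ± 27.2 FPKM (SD, n = 3 each), a ratio of 2.79, and the log2 difference was 1.48 ± 0.0629 (SE). Counts were 287, 77 and 328 in the control and 615, 559 and 783 in the shCTCF group, a log2 fold change of 1.43 ± 0.0918 (SE). Nearly all of these counts (at least 98.95% in each library) were assigned to the 1 accession NM_009414, so that they do not measure the other Tph1 transcripts.

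The FPKM table held 3 Tph1 transcripts with FPKM above 0, from 2 start sites that lie 5.16 kb apart. The transcript from the upstream start, NM_009414, has 4562 nt and was at 44.9 ± 4.40 FPKM in control and 89.4 ± 8.01 in shCTCF samples (SD, n = 3 each), a ratio of 1.99. From the downstream start, NM_001136084 (4251 nt) was at 67.0 ± 6.47 and 217 ± 21.9 FPKM, a ratio of 3.24. The short NM_001276372 (612 nt, 4 exons), from the same downstream start, was at 107 ± 13.1 and 305 ± 25.5 FPKM, a ratio of 2.85. The upstream transcript made up 19.6% to 21.4% of Tph1 FPKM in control and 12.8% to 16.1% in shCTCF samples. The count table did not show this smaller ratio. The fragments assigned to NM_009414 alone were 284, 77 and 326 counts in control and 614, 554 and 777 counts in shCTCF samples, or 42.7 ± 1.63 and 114.7 ± 5.69 CPM (SD, n = 3 each), a ratio of 2.69, while NM_001136084 had 0 counts in all 6 samples and NM_001276372 at most 6. How FPKM was divided among transcripts that share exons is an estimate of the authors' software whose error is not in the table, and no difference between the 2 starts is read from it.

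**Figure D2:**
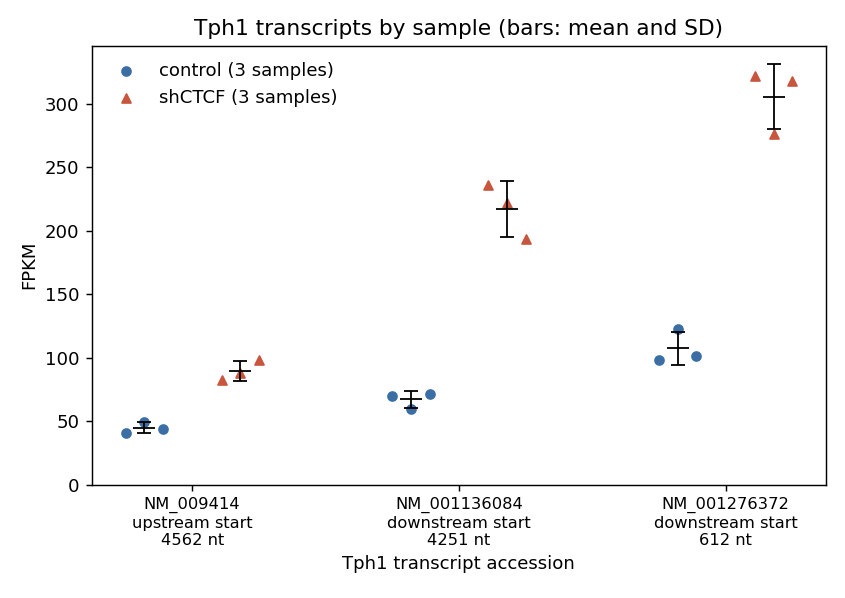
FPKM of the 3 Tph1 transcripts, by accession, start site and length, in the 3 control (circles) and 3 shCTCF (triangles) samples, with bars for mean and SD. Every transcript is higher in each shCTCF sample than in any control sample, with ratios of means of 1.99 for the upstream start and 3.24 and 2.85 for the downstream start in FPKM. Counts assigned to the upstream accession alone gave a ratio of 2.69.

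The windows before both Tph1 starts are shown because Tph1, the member with the highest FPKM summed over transcripts, has transcripts from both. They come from RefSeq (GRCm38.p6, minus strand), at chr7:46672538-46672787 for the upstream start and chr7:46667378-46667627 for the downstream start, which are mm9 positions 53927908 to 53928157 and 53922748 to 53922997.
Tph1 upstream start: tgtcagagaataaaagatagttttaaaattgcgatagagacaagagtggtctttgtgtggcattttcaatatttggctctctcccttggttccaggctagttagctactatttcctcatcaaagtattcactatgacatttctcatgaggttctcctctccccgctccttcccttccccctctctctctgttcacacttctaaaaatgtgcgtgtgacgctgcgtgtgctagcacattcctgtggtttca
Tph1 downstream start: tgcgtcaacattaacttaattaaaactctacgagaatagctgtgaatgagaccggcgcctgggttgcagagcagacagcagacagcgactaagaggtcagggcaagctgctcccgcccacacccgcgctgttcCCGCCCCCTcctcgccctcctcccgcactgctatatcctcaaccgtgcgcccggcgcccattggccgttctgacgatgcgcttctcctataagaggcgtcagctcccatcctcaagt
None of the 7 strings was in the upstream window. The downstream window, in capitals, held the GC box from -117 to -111 and, overlapping it, the CTCF core from -116 to -109, both on the strand opposite to the gene. Its GC content was 58.8% and its ratio of observed to expected CpG was 0.92, against 43.6% and 0.43 in the upstream window. CTCF binding was not measured in these files.

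Arachidonate release is the step of Pla2g4a, the cytosolic phospholipase A2, which lies on the minus strand of chromosome 1 (mm9, 151676749 to 151808420). It was at 58.6, 47.6 and 60.0 FPKM in the control and at 72.0, 71.6 and 68.9 FPKM in the shCTCF group. The groups did not overlap, but the log2 difference of 0.36 ± 0.0949 (SE) was small. In the count table its counts were 113, 21 and 118 in control and 77, 60 and 102 in shCTCF samples, a log2 fold change of -0.13 ± 0.177 (SE), so that both tables differed in sign for this gene. The count table omitted fragments shared between the overlapping accessions of a gene, whereas the FPKM table placed all of the Pla2g4a signal on NM_008869.

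The leukotriene arm was incomplete. Alox5, the 5-lipoxygenase (chromosome 6, minus strand, mm9 116360089 to 116411196), was at 0.0329 FPKM in control 1, 0.0391 FPKM in shCTCF 2 and 0 in the other 4 samples, with 1 count in each of those 2 samples. That is at or under the limit that a count of 0 allows in every library, so that Alox5 was not detectable at this depth in either group and no fold is given. Its partner Alox5ap (chromosome 5, plus strand, mm9 150076580 to 150099729) was abundant, at 128, 142 and 131 FPKM in control and 168, 139 and 137 FPKM in shCTCF samples. These groups overlapped, and the log2 difference was 0.14 ± 0.0903 (SE), ranging from 0.05 to 0.32 over the alternatives. Alox5ap had at most 3 counts in a library. Ltc4s, leukotriene C4 synthase (chromosome 11, minus strand, mm9 50049963 to 50052034), was at 0.422, 0.562 and 0.270 FPKM in control and 1.53, 1.51 and 1.48 FPKM in shCTCF samples, without overlap. It had 0 counts in all 6 samples, and in control 2 and 3 its FPKM was placed on another accession than in control 1, so that its level is uncertain.

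The Alox5 promoter window is shown because the gene was not detected in these libraries while its partner was abundant. It is from RefSeq (GRCm38.p6, chr6:116461179-116461428, minus strand) and is found once on mm9 chromosome 6, at 116411197 to 116411446.
Alox5: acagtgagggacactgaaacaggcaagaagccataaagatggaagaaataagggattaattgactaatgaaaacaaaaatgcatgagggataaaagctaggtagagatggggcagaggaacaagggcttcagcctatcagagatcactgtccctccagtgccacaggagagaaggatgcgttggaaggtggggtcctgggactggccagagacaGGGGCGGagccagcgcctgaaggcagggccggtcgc
It held the GC box from -36 to -30, as in 20.97% of all promoters, and none of the other strings.

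In the prostanoid arm, Ptgs1, the constitutive cyclooxygenase (chromosome 2, plus strand, mm9 36085946 to 36107791), was at 3.37, 2.27 and 3.37 FPKM in control and 9.20, 7.21 and 6.89 FPKM in shCTCF samples. The lowest shCTCF sample was above the highest control sample, the ratio of means was 2.59, and the log2 difference was 1.14 ± 0.156 (SE). Its counts, 115, 24 and 129 in control and 277, 201 and 239 in shCTCF samples, gave a log2 fold change of 1.37 ± 0.156 (SE). Ptgs2, the inducible cyclooxygenase (chromosome 1, plus strand, mm9 151947161 to 151955364), was low, at 0.979, 1.46 and 1.52 FPKM in control and 2.11, 1.64 and 1.86 FPKM in shCTCF samples. Its groups did not overlap but lay close together, with a log2 difference of 0.31 ± 0.144 (SE) in FPKM and 0.72 ± 0.209 (SE) in counts, which were 50, 19 and 81 against 98, 67 and 96. The starts of Ptgs2 and Pla2g4a are 138.7 kb apart and point away from each other. Hpgds, hematopoietic prostaglandin D synthase (chromosome 6, minus strand, mm9 65067287 to 65094724), was at 4.93, 3.61 and 4.53 FPKM in control and 5.91, 6.23 and 5.88 FPKM in shCTCF samples. These groups did not overlap either, and the differences were modest, at 0.40 ± 0.116 (SE) on the log2(FPKM + 1) scale and 0.53 ± 0.116 (SE) in counts.

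**Figure D3:**
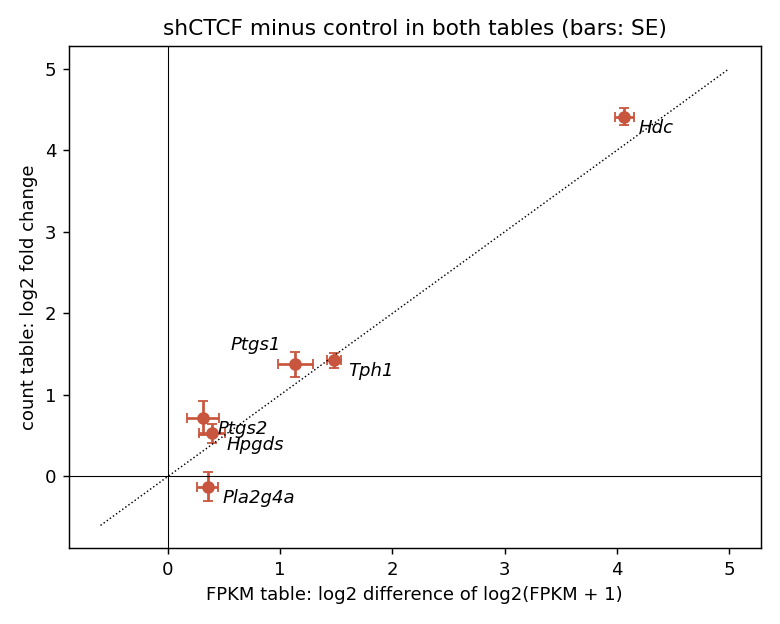
Log2 difference between shCTCF and control samples of the 6 members in both fits, in the FPKM table (horizontal) and in the count table (vertical), with bars for the SE and a dotted line of equal values. Hdc, Tph1, Ptgs1, Hpgds and Ptgs2 are above 0 in both tables, whereas Pla2g4a is at 0.36 in FPKM and -0.13 in counts.

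The other genes of these pathways were counted from lists by role that leave out the members. Of 111 genes listed, 39 were tested in the FPKM table, of which 18 were called higher, 15 lower and 6 neither, with a median log2 difference of -0.02 beside -0.17 over all genes. In counts, 33 were tested, of which 19 were called higher, 8 lower and 6 neither, with a median of 0.80 beside -0.02. A gene low in 1 group could pass either filter through the other group alone, and was then bound to be higher in that group. The same holds for the shares over all genes, so that nothing is read from these numbers of calls. All adjusted p-values in the next paragraphs are from limma on the FPKM table unless edgeR is named.

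Histamine and serotonin are stored in vesicles by Slc18a2, the vesicular monoamine transporter VMAT2, which went the opposite way to Hdc and Tph1. Slc18a2 was at 34.2, 21.7 and 34.6 FPKM in control and 4.41, 4.33 and 5.12 FPKM in shCTCF samples, and it fell with a log2 difference of -2.44 ± 0.177 (SE, limma adjusted p = 9.2e-06). Counts gave -2.53 ± 0.144 (SE, edgeR adjusted p = 1.6e-08). Of the 9 genes listed for histamine storage, breakdown and receptors it was the 1 tested in FPKM. In counts the receptor gene Hrh2 was tested as well, at 0, 0 and 1 against 16, 14 and 19 counts (edgeR adjusted p = 2.5e-05), and it was named here after its values were seen. Hrh2 passed the filter on counts only through the shCTCF group, so that nothing is read from its p-value.

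Genes of the BH4 cofactor of Tph1 did not move together. Qdpr, the dihydropteridine reductase that regenerates BH4, was at 62.9, 56.8 and 61.3 FPKM in control and 5.0, 3.33 and 4.34 FPKM in shCTCF samples and fell with a log2 difference of -3.56 ± 0.124 (SE, limma adjusted p = 2.7e-07), with -3.50 ± 0.118 (SE, edgeR adjusted p = 1.9e-10) in counts. Pts, the synthase that makes the BH4 precursor, was at 21.2, 11.7 and 25.3 against 2.40, 3.68 and 3.25 FPKM, a fall with a log2 difference of -2.26 ± 0.263 (SE, limma adjusted p = 0.00012) that the count table did not show (0.04 ± 0.448, SE, edgeR adjusted p = 0.94, from 7 to 23 counts a library). Spr, sepiapterin reductase, rose by a log2 difference of 0.33 ± 0.115 (SE, limma adjusted p = 0.032), a call that was lost without control 1, control 3, shCTCF 1 or shCTCF 3 (adjusted p of 0.0978, 0.0543, 0.117 and 0.0748), without the filter on low FPKM (0.0534) and with the highest accession of each symbol (0.053). Gch1, GTP cyclohydrolase and the entry enzyme of BH4 synthesis, had means of 21.0 and 20.2 FPKM and was not past the threshold (limma adjusted p = 0.76); it was named here after its values were seen. Maoa, the monoamine oxidase that breaks serotonin down, fell from a mean of 12.9 to 8.51 FPKM (log2 difference -0.55 ± 0.0769, SE, limma adjusted p = 0.00036). Of the 17 genes listed for serotonin and BH4, 6 were tested in FPKM, with 1 called higher and 3 lower, and 7 in counts, with 2 called higher, 2 lower and 3 neither. The shares of all genes called higher and lower were 28.8% and 44.2% in FPKM and 34.8% and 34.3% in counts.

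The decarboxylase step after Tph1 was hardly covered. Ddc was at 0.475, 1.11 and 0.533 FPKM in control, at 0 in shCTCF 1 and 2 and at 0.0455 FPKM in shCTCF 3, and it had 0 counts in all samples, below both filters. Slc18a1, the other vesicular monoamine transporter (VMAT1), was at 0.119, 0 and 0.112 FPKM in control and 1.07, 0.745 and 1.14 FPKM in shCTCF samples, and in counts it rose (5, 0 and 7 against 54, 31 and 50 counts, log2 fold change 3.40 ± 0.410, SE, edgeR adjusted p = 1.2e-05). Its highest level per length stayed below the lowest Slc18a2 level of the shCTCF group. Ddc and Slc18a1 were named after their values were seen. Slc18a1 passed the filter on counts only through the shCTCF group, so that nothing is read from its p-value. Among serotonin receptors, Htr1b was the 1 of 14 tested in FPKM, and it rose from 2.80, 2.80 and 1.87 to 33.2, 28.1 and 31.2 FPKM (log2 difference 3.20 ± 0.132, SE, limma adjusted p = 5.8e-07), although its exon overlaps D430036J16Rik on the opposite strand and counting did not use strand. In counts Htr1b was called higher as well, at 20, 8 and 16 against 318, 211 and 321 counts, and the 1 other receptor tested, Htr2b, was not past the threshold (edgeR adjusted p = 0.3).

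**Figure D4:**
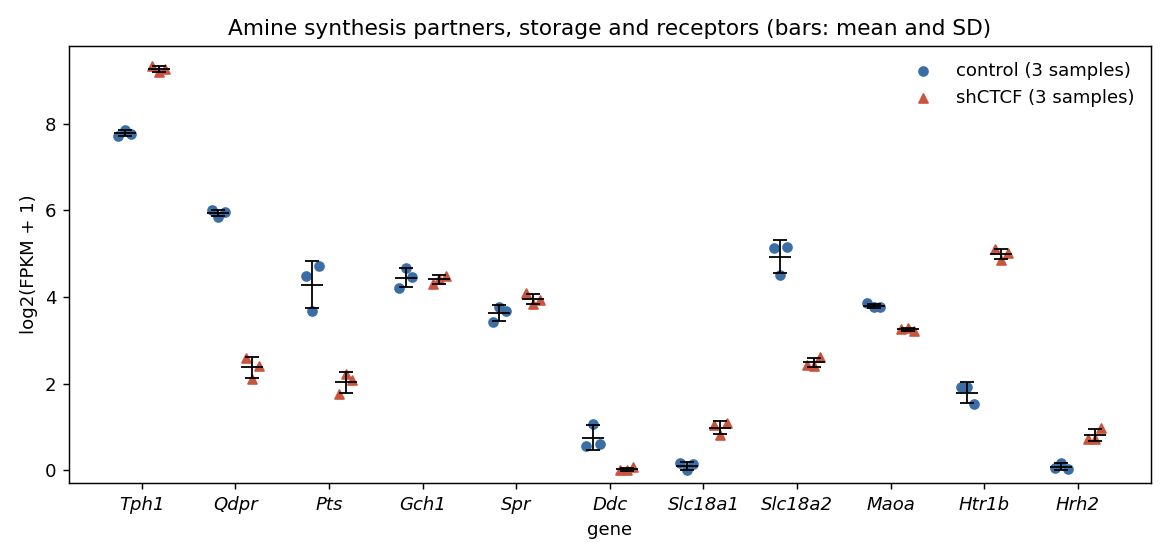
Levels of Tph1 and of genes for BH4 synthesis and regeneration, decarboxylation, vesicular storage, breakdown and reception of histamine and serotonin, as log2(FPKM + 1) in the 3 control (circles) and 3 shCTCF (triangles) samples with mean and SD. Tph1 and Htr1b are higher and Qdpr and Slc18a2 lower in every shCTCF sample, and Gch1 overlaps between the groups.

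For the supply of arachidonic acid, 10 of 21 listed genes were tested in FPKM, of which 5 were called higher, 3 lower and 2 neither. Of all genes, 28.8% were called higher and 44.2% lower. Anxa1, which encodes annexin A1, known as an inhibitor of phospholipase A2, rose from 1.93, 1.29 and 2.93 to 14.6, 17.0 and 12.4 FPKM (log2 difference 2.39 ± 0.203, SE, limma adjusted p = 2.2e-05). Acsl4, which activates arachidonic acid to its CoA ester, rose from 33.9, 19.4 and 32.9 to 123, 115 and 112 FPKM (2.02 ± 0.194, SE, limma adjusted p = 4.1e-05). The acyltransferases Lpcat2 and Mboat7, which rebuild phospholipids, rose with log2 differences of 1.76 ± 0.064 (SE, limma adjusted p = 3.2e-07) and 1.25 ± 0.085 (SE, limma adjusted p = 6.6e-06). The phospholipase genes Pla2g6 and Pla2g12a fell (-1.11 and -0.83, limma adjusted p = 4.2e-05 and 0.00011), whereas Pla2g15 rose (0.71, limma adjusted p = 0.00058). Pla2g6, Pla2g12a and Pla2g15 were named after their values were seen. Lpcat2, Pla2g6 and Pla2g15 had at most 4 counts in a library and Pla2g12a at most 17, and counts did not test these genes. In counts, 4 of 5 tested genes were called higher and 1 lower.

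Downstream of the cyclooxygenases, 7 of 15 listed genes were tested in FPKM, of which 1 was called higher, 5 lower and 1 neither, beside 28.8% and 44.2% of all genes. Ptgis, prostacyclin synthase, fell from 10.2, 12.7 and 10.5 to 2.55, 2.49 and 2.83 FPKM (log2 difference -1.74 ± 0.110, SE, limma adjusted p = 4.5e-06), and Abcc4, a prostaglandin exporter, from 9.36, 9.07 and 9.22 to 2.66, 2.57 and 2.56 FPKM (-1.51 ± 0.0848, SE, limma adjusted p = 2.5e-06). Abcc4 had 0 counts in all samples, so that counts do not measure its fall. Ptgr1, prostaglandin reductase 1, was the gene that rose (0.76 ± 0.112, SE, limma adjusted p = 0.00047). Akr1b3, an aldose reductase with prostaglandin F synthase activity, was at 52.1, 50.4 and 34.1 FPKM in control, was listed at 0 in shCTCF 1 and 2 and was at 15.2 FPKM in shCTCF 3 (limma adjusted p = 0.0056). It had 0 counts in all samples and its exons overlap Gm6644, so that its fall is uncertain. In counts, 2 of 5 were called higher, 2 lower and 1 neither.

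Among leukotriene and lipoxygenase genes, 4 of 8 tested were called higher, 3 lower and 1 neither, beside 28.8% and 44.2% of all genes. Cotl1, which encodes a coactosin-like protein known to bind 5-lipoxygenase, fell from 72.8, 85.7 and 69.9 to 4.50, 3.31 and 4.99 FPKM (log2 difference -3.88 ± 0.138, SE, limma adjusted p = 3e-07; counts -3.84 ± 0.138, SE, edgeR adjusted p = 2.9e-10). Lta4h, leukotriene A4 hydrolase, which makes leukotriene B4, fell from a mean of 37.7 to 14.6 FPKM (-1.31 ± 0.0786, SE, limma adjusted p = 3.5e-06). Lta4h had 0 counts in all samples, so that counts do not measure this fall. Alox15, another lipoxygenase, rose from 0.231, 0.150 and 0.432 to 2.43, 1.88 and 2.51 FPKM (1.36 ± 0.150, SE, limma adjusted p = 8.8e-05), and Cyp4f18, which inactivates leukotriene B4, from a mean of 0.619 to 4.42 FPKM (1.75 ± 0.128, SE, limma adjusted p = 9.6e-06). Both passed the filter on FPKM only through the shCTCF group, so that nothing is read from these p-values. Their counts were 15, 7 and 19 against 72, 67 and 99 for Alox15, and 28, 5 and 21 against 84, 97 and 107 for Cyp4f18. In counts, 4 of 7 were called higher, 2 lower and 1 neither.

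All 6 eicosanoid receptor genes tested in FPKM, of 16 listed, and all 5 tested in counts were called higher, beside 28.8% and 34.8% of all genes. Among the latter, Ptgfr (3, 1 and 1 against 10, 20 and 23 counts) and Ltb4r2 (1, 2 and 4 against 18, 26 and 25) passed the filter only through the shCTCF group. Ptgfr and Ltb4r2 were named after their values were seen. Ptger4 and Ptger3, receptors of prostaglandin E2, rose from 23.1, 22.1 and 21.4 to 124, 126 and 133 FPKM (log2 difference 2.47 ± 0.0639, SE, limma adjusted p = 7.3e-08) and from 28.1, 27.7 and 33.3 to 95.9, 90.2 and 85.0 FPKM (1.58 ± 0.0899, SE, limma adjusted p = 2.7e-06). Neither passed the filter on counts. The leukotriene B4 receptor gene Ltb4r1 rose from a mean of 18.9 to 45.1 FPKM (1.23 ± 0.146, SE, limma adjusted p = 0.00013), and Cysltr2, a receptor of cysteinyl leukotrienes, from 1.86 to 5.01 FPKM (1.13 ± 0.242, SE, limma adjusted p = 0.0034). Cysltr2 had at most 3 counts in a library, on another transcript than its FPKM, so that counts do not measure its rise. The other 2, Ptger1 and Ptgir, had log2 differences of 0.43 each.

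**Figure D5:**
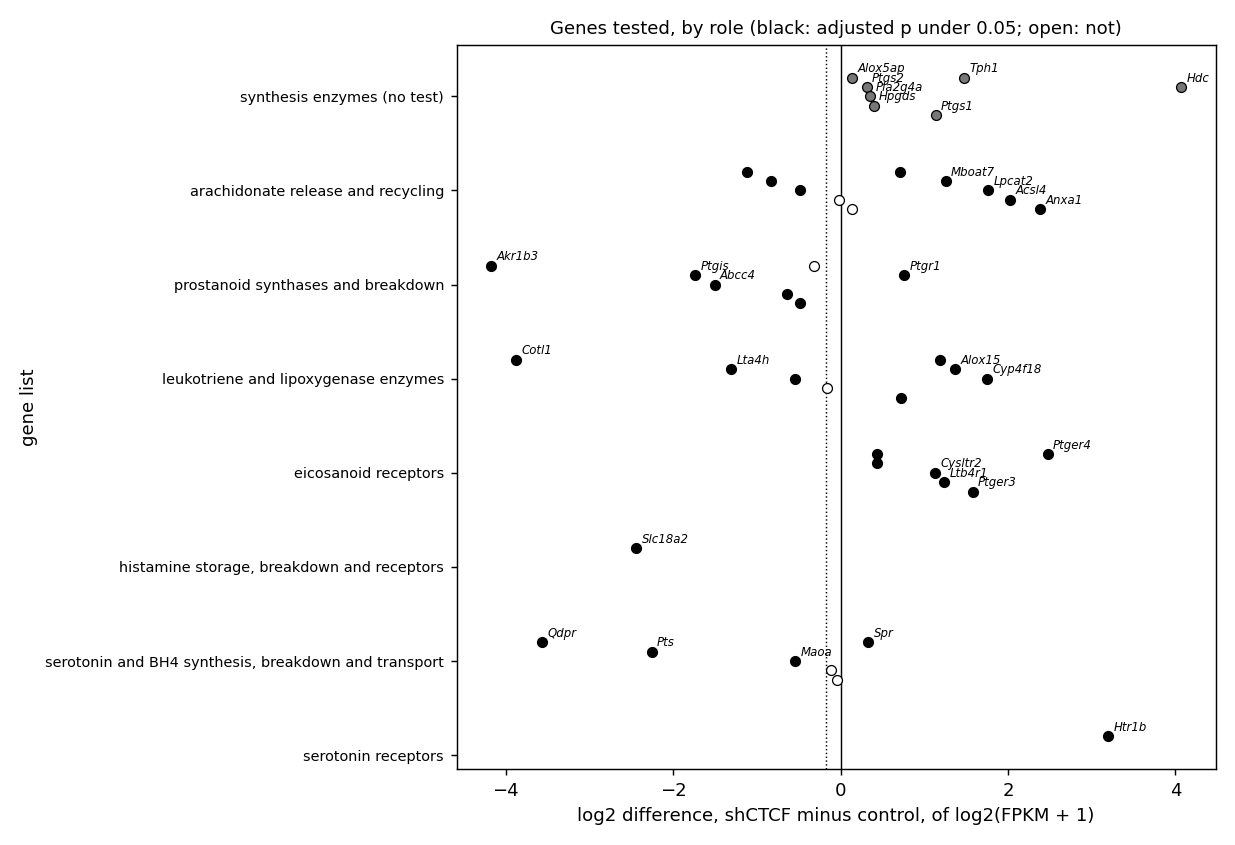
Log2 difference between shCTCF and control samples on the log2(FPKM + 1) scale for each gene tested, grouped by role, with the members in grey (no test) and the other genes in black where the limma adjusted p was under 0.05 and open where it was not. The dotted line is the median of all genes (-0.17), and the 6 eicosanoid receptor genes all lie to its right, whereas Cotl1, Qdpr and Slc18a2 lie far to its left.

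Genes whose pattern was most like that of Hdc and Tph1 were found by the distance between their 6 centred log2(FPKM + 1) values. Nearest to Hdc was Il7r, the interleukin 7 receptor gene (distance 0.0644), which was at 1.77, 1.58 and 1.68 FPKM in control and 47.8, 43.8 and 38.3 FPKM in shCTCF samples, followed by Gm5662 (0.151) and Serpinb9b (0.154). Gm5662 and Serpinb9b were close to 0 in control samples (means of 0.0157 and 0.0300 FPKM) and at 15.7 and 16.1 FPKM in shCTCF samples. Their difference on this scale therefore depends on the 1 added before the log. Near to Tph1 were Tulp4 (0.0952) and Slc9a3r1 (0.109). Tulp4 (means of 2.43 and 8.56 FPKM) and Il7r were low in control samples, so that the added 1 shrinks their differences too. Likeness on this scale therefore does not mean an equal ratio of FPKM. Alox5 was in no fit and has no such neighbours.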

How the data were processed

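RNA-seq was measured in 6 samples, 3 control and 3 shCTCF. Reads were aligned by the authors to mm9 with HISAT2. For the deposited count table, featureCounts 1.6.2 was used by the authors to give whole fragments per RefSeq accession, without strand, and a fragment shared between accessions was not assigned. The deposited FPKM values were made by the authors with Cufflinks 2.2.1 and are normalized for length and depth. Accessions were named with a RefSeq table of GRCm38.p6, used for names and promoter sequences only (41186 of 41388 count accessions and 41685 of 41876 FPKM rows matched, and unnamed accessions held at most 0.603% of counts), and values were summed per symbol. Coordinates are those of mm9, counted from 1. Promoter windows were found for 8 of the 9 members.

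The FPKM table was tested with limma 3.58.1 (with trend) on log2(FPKM + 1) for genes whose mean reached 1 FPKM, which understates differences of low genes, and the count table with edgeR 4.0.16 (quasi-likelihood, TMM, filterByExpr; R 4.3.3). Two-sided p-values were adjusted (Benjamini-Hochberg) over all genes tested, with a threshold of 0.05. Both fits were run on simulated data with noise fixed in advance and few changed genes. These libraries differ in both respects, so that nothing about the calls here is read from that run. Libraries within a group were not duplicates of each other (chi-square per degree of freedom 2.07 to 8.17). The members and the gene lists were chosen with earlier results of these data known. Named beside the members were, of each list, at most 4 genes with the largest log2 difference among those past the threshold whose groups did not overlap and whose higher group had a mean of at least 1 FPKM, the 3 nearest genes to Hdc and Tph1 (1 of them is not reported here), Ctcf and, of each marker list, at most 4 leading genes. Alternatives were another pseudocount (0.1), no filter, scaling to equal medians, the highest accession of a symbol, a replicate block, DESeq2 1.42.0, its size factors, library size only, and each sample left out.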

Additional observations from a re-analysis of the deposited data

How the results depend on the processing

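No alternative changed the sign of a member's difference within either table. Of 143 values of members under an alternative 133 moved by less than the replicate spread and 10 by more, and Alox5ap came to 0.32 under equal medians. Of 407 numbers of calls and Ctcf values 390 stayed within 1.5 times the main value. Of 407 values of the other named genes 8 lost the threshold, all for Spr, and 6 turned sign, all for Pts in counts, which was never past the threshold (-0.11 with the replicate block, -0.065 with DESeq2, -0.12 with library size only, and -0.36 to 0.34 with samples left out). The control 2 library holds the fewest counts, and depth is unknown in FPKM.

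Without a filter on FPKM, the genes called higher were 9 for arachidonate release, 3 for prostanoids, 1 for histamine and 2 for serotonin and BH4. For serotonin and BH4 in FPKM the number called higher was 0 with the highest accession, 0 with the replicate block (Spr, adjusted p = 0.0623 by limma) and 0 to 1 with samples left out, and in counts 1 with library size only. For prostanoids in counts the number called higher was 1 with the replicate block and 1 with DESeq2. With samples left out, counts gave 1 to 3 higher and 1 to 3 lower for prostanoids (1 of each without shCTCF 1, and 1 lower without shCTCF 3) and 0 to 1 lower for arachidonate release (0 without shCTCF 1). The replicate numbers did not pair the samples (correlations of same-numbered deviations -0.04, 0.02 and 0.04 in FPKM), not every sample correlated best with its own number, and the block moved all calls from 7281 to 7137 in FPKM and from 5074 to 4889 in counts.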
